A study of Mus musculus with 6 samples.

Results

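The genes described here mark the basal, or myoepithelial, layer of the mammary epithelium. They comprise 6 contractile genes (Acta2, Myh11, Cnn1, Mylk, Tagln and Oxtr) and 4 genes of basal identity (Trp63, Snai2, Lgr5 and Cdh3), and they were found among the 55681 gene probes of the array by matching each probe's transcript accession to the RefSeq gene symbol. All 10 genes had a probe, 11 probes in all because Trp63 had 2, and all 10 were among the 22503 genes or unnamed transcripts tested. Feature Extraction called all 11 probes well above background on the 6 arrays, in the RANK-/- and the RANK+/+ channel alike. Every value given below for these 10 genes is therefore a measured level and not a bound, which does not hold for all other genes named.

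Myoepithelial cells lie between the luminal cells and the basement membrane of the mammary ducts and alveoli. They contract through an actin and myosin apparatus of the smooth muscle type when oxytocin binds its receptor, and this moves milk along the ducts. Their identity depends on the transcription factor p63, and smooth muscle cells and pericytes of blood vessels share much of the contractile apparatus but not the basal epithelial factors.

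RNA came from live CD45- cells, the fraction depleted of leukocytes, sorted from tumors that had grown in syngeneic C57BL/6 mice after orthotopic transplantation of cells from late carcinomas. Both groups carried the MMTV-PyMT transgene, the polyomavirus middle T oncogene driven by a promoter active in mammary epithelium, on a C57BL/6 background, and donor cells were RANK+/+ or RANK-/-. RANK, encoded by Tnfrsf11a, was removed only from transplanted cells, so fibroblasts and vessels that a host supplied to the CD45- fraction were of the host's genotype. One RNA of each genotype shared each array, giving 3 pairs of RNAs with 2 technical replicate arrays (A and B) each. In pair 1 the RANK-/- RNA carried Cy5, in pairs 2 and 3 it carried Cy3, and so dye arrangement and pair 1 cannot be told apart. The series text calls the 3 samples of a genotype biological replicates, but no label names the animals.

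All values are log2 ratios of the channel labelled RANK-/- over the channel labelled RANK+/+, with arrays A and B averaged, or normalized intensities of one channel. Errors are the SD over n = 3 pairs. Tnfrsf11a itself was higher in the channel labelled RANK-/- in every pair (log2 ratios 2.03, 1.15 and 1.76), which goes against the label, and the part of the transcript read by its probe was not given in the sources used here. Directions below therefore follow the channel labels as they stand. In each channel, 51.9% to 58.8% of gene probes were well above background. Ratios correlated across genes with r of 0.973 to 0.983 between technical arrays and of -0.279 to 0.178 between pairs. Genes are not independent replicates, and these correlations are descriptions.

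The basal genes did not behave as 1 block. The 6 contractile genes had a median log2 ratio of 0.70 in pair 1, -0.38 in pair 2 and 0.03 in pair 3, so the sign turned between pairs. All 6 were above 0 in pair 1, 2 in pair 2 and 3 in pair 3. The 4 identity genes had medians of -0.22, -0.41 and -0.36, and 1, 0 and 1 of them were above 0. Over all genes tested the medians were 0.02, -0.01 and 0.00. In bulk RNA of this kind, fewer cells of a type and less RNA per cell cannot be told apart.

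By limma, 0 of the 10 genes passed an adjusted p of 0.05, and so did 0 of all 22503 genes (0%), with adjusted p 1.00 for each of the 10. At an unadjusted p under 0.05 limma gave 647 of the 22503 genes, 373 higher and 274 lower in the RANK-/- channel. Among them were 2 of the 10, Snai2 and Cdh3, both lower. A rank product on the same ratios called 9 genes and none of the 10, with the smallest adjusted p among them 0.47, for Oxtr. With 3 pairs the smallest p of an exact two-sided sign-flip test is 0.25. One of the 10 was higher in the RANK-/- channel in every pair (Oxtr), against 9.95% of all genes, and 3 were lower in every pair (Snai2, Lgr5 and Cdh3), against 9.65% of all genes. With median centring in place of loess, Oxtr and Lgr5 no longer had 1 sign in every pair.

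**Figure D1:**
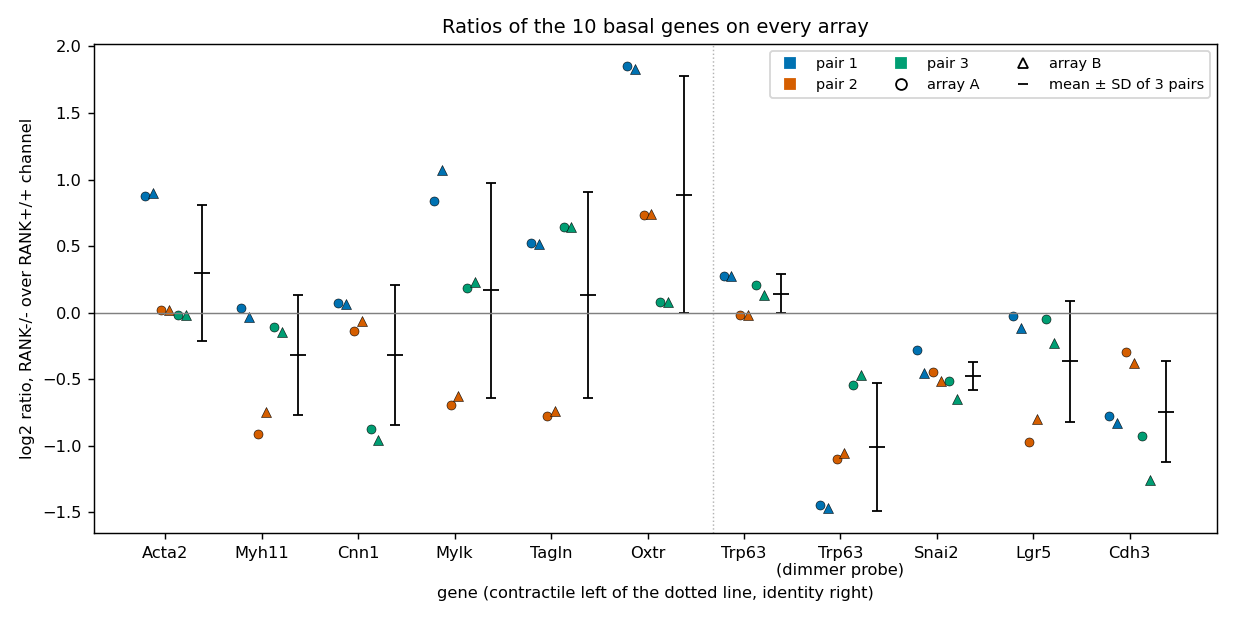
Log2 ratio of the RANK-/- over the RANK+/+ channel (vertical axis) for the 11 probes of the 10 genes (horizontal axis), with a circle for array A and a triangle for array B, a color per pair, and a bar for the mean ± SD of the 3 pairs. For most probes the 2 arrays of a pair lie much closer together than the pairs do. Exceptions are Snai2, whose pairs lie close, and Cdh3 in pair 3, whose arrays lie apart (-0.92 and -1.26). Oxtr, Snai2, Lgr5, Cdh3 and the dimmer Trp63 probe keep 1 sign in every pair.

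Among the contractile genes, Oxtr, the oxytocin receptor, differed most. Its ratio was 1.84, 0.74 and 0.08 in pairs 1, 2 and 3, a mean of 0.89 ± 0.89, which equals a signal 1.85-fold higher in the RANK-/- channel. Pair by pair the folds were 3.58, 1.67 and 1.06. It was the only one of the 10 at least 2-fold higher in pair 1, where 3.66% of all genes were.

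The 3 RANK-/- RNAs had nearly the same Oxtr level, with normalized intensities of 1289, 1397 and 1318 in pairs 1, 2 and 3. The RANK+/+ RNAs held 360, 838 and 1248, so the RANK+/+ levels varied more. On the log2 scale the level spanned 0.12 among RANK-/- and 1.79 among RANK+/+ RNAs. Every RANK-/- level lay above every RANK+/+ level for Oxtr alone of the 10, as it did for 3.69% of all genes. The mean ratio was 0.41 without pair 1, the pair with the other dye arrangement, and 1.29 without pair 3. With a dye term in the fit, limma put the mean at 1.12 (adjusted p 1.00). Levels, unlike ratios, compare different arrays and also carry the dye.

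Acta2, smooth muscle alpha-actin, was read by 1 probe printed in 10 spots. Its ratio was 0.89 in pair 1, 0.02 in pair 2 and -0.01 in pair 3, with a mean of 0.30 ± 0.51. The spots of an array had an SD of 0.03 to 0.09, so the ratio of pair 1 was far outside spot error and the ratios of pairs 2 and 3 were within it. The intensities were 7054, 8152 and 10877 in RANK-/- RNAs and 3814, 8041 and 10989 in RANK+/+ RNAs. The lowest of the 6 was the RANK+/+ RNA of pair 1, and the RANK-/- RNA of pair 1 was also the lowest of its genotype. Without pair 1 the mean was 0.00.

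Tagln, transgelin or SM22-alpha, an actin-binding protein, had ratios of 0.52, -0.76 and 0.64, a mean of 0.13 ± 0.77. The intensities were 3805, 4073 and 9867 in RANK-/- and 2653, 6886 and 6329 in RANK+/+ RNAs. The 2 genotypes overlapped, and the highest level was in the RANK-/- RNA of pair 3. The mean changed sign without pair 1 (-0.06) and without pair 3 (-0.12).

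Mylk, the myosin light chain kinase that starts contraction, had ratios of 0.95, -0.66 and 0.21, with a mean of 0.17 ± 0.81. Its arrays A and B of pair 1 lay 0.24 apart, the widest technical gap among the contractile genes. Intensities were 191, 115 and 184 in RANK-/- and 98.5, 181 and 160 in RANK+/+ RNAs. The ranges overlapped, and the mean was -0.23 without pair 1.

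Myh11, the smooth muscle myosin heavy chain, had ratios of 0.00, -0.83 and -0.13, a mean of -0.32 ± 0.45. Intensities were 129, 108 and 189 in RANK-/- RNAs and 129, 191 and 207 in RANK+/+ RNAs. Only pair 2 departed from equality by more than the largest gap between its technical arrays, 0.16.

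Cnn1, the actin-binding protein calponin, had ratios of 0.07, -0.10 and -0.92, a mean of -0.32 ± 0.53. Intensities were 796, 1490 and 1655 in RANK-/- and 759, 1599 and 3122 in RANK+/+ RNAs. Thus 1 RNA, the RANK+/+ RNA of pair 3, stood above the rest, and without pair 3 the mean was -0.02. In both genotypes pair 1 held the lowest Cnn1 level and pair 3 the highest.

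For each of the 6 contractile genes the SD over pairs was at least as large as the mean ratio. Pair 2 alone had Myh11, Mylk and Tagln below -0.6 together, and pair 3 alone had Cnn1 there, while Oxtr was above 0 throughout. None of the 6 was at least 2-fold lower in any pair (2.84%, 2.37% and 3.01% of all genes in pairs 1, 2 and 3) and none was at least 2-fold higher in pair 2 (2.45% of all genes) or pair 3 (4.91% of all genes).

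**Figure D2:**
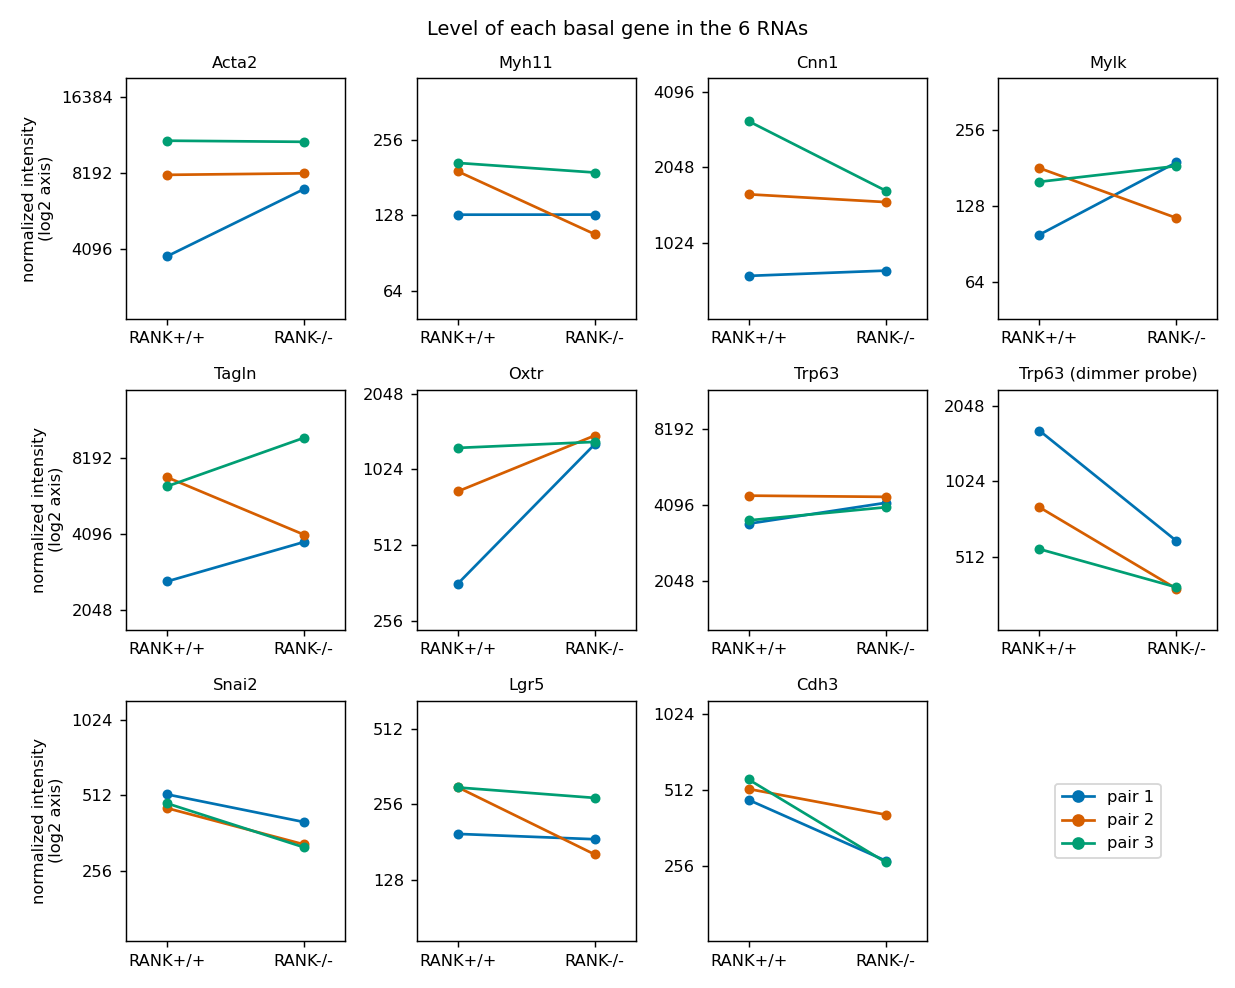
Normalized intensity of each probe (vertical axis, log2 scale, the same 9-fold span in every panel) in the RANK+/+ and RANK-/- RNA of each pair, joined by a line per pair. Oxtr converges on 1289 to 1397 in the RANK-/- RNAs, Acta2 differs in pair 1 only, and all 3 lines of Snai2, Cdh3 and the dimmer Trp63 probe slope down.

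Contractile genes of the smooth muscle type are known targets of serum response factor, which binds the CArG box. Promoter windows in RefSeq (GRCm38.p6, 250 bases before to 50 bases after the annotated start) were found for 4 of the 10 genes, Acta2, Cnn1, Mylk and Oxtr. The CArG box was searched on the gene's strand, and being symmetric it reads alike on both. It was in 0 of the 4 windows as the consensus and in 1.63% of all 32851 windows. With 1 of its 6 central bases allowed to be G or C, a search chosen after the sequences were seen, it occurred at 2 places in Acta2, at none in Cnn1, Mylk and Oxtr, and in 8.5% of all windows. Shown are the 300 bases of Acta2, the only gene of the 4 with such matches, with both matches in capitals, and those of Oxtr, the contractile gene of the largest ratio, which has none (minus strand, chr19:34255324-34255623 for Acta2 and chr6:112489776-112490075 for Oxtr).
Acta2: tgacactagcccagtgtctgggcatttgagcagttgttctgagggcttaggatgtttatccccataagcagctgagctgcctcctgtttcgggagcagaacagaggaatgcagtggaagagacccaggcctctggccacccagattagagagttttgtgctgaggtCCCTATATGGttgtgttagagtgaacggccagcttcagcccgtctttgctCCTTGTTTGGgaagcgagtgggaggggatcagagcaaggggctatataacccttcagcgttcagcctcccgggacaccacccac
Oxtr: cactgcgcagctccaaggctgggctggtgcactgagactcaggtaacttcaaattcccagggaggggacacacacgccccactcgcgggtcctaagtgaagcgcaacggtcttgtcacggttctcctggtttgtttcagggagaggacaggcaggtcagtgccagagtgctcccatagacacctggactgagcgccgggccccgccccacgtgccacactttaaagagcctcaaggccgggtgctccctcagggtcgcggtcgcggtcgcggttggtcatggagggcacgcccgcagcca
The matches in Acta2, CCCTATATGG and CCTTGTTTGG, began at bases 167 and 217 of the window, and 0.679% of all windows held 2 or more of this kind. They are matches of letters and were not tested as binding sites.

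The identity genes were lower in the RANK-/- channel with 1 exception that depended on the probe. Cdh3, P-cadherin, which joins myoepithelial cells to each other, had ratios of -0.80, -0.34 and -1.09, a mean of -0.74 ± 0.38. This equals a signal 1.67-fold lower in the RANK-/- channel. It was the only one of the 10 genes at least 2-fold lower in pair 3 (2.13-fold), where its arrays A and B, at -0.92 and -1.26, differed more than those of any other member.

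Cdh3 intensities were 268, 408 and 264 in RANK-/- RNAs and 467, 516 and 563 in RANK+/+ RNAs. The genotypes did not overlap, as for 2 of the 10 genes in this direction (Cdh3 and Snai2) and 3.77% of all genes. The mean without any 1 pair stayed between -0.95 and -0.57.

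Snai2, the zinc finger factor Slug, which is active in basal and stem-like mammary cells, had the smallest SD over pairs of the 10. Its ratios were -0.36, -0.48 and -0.58, a mean of -0.47 ± 0.11, equal to a signal 1.39-fold lower. Intensities were 402, 327 and 319 in RANK-/- and 517, 456 and 477 in RANK+/+ RNAs, with no overlap. The SD over pairs was near the technical SD of this probe, 0.09, and the 6 arrays ranged from -0.28 to -0.65.

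Lgr5, a receptor for R-spondins that marks a subset of basal cells, had ratios of -0.07, -0.89 and -0.14, a mean of -0.36 ± 0.45. Intensities were 186, 162 and 272 in RANK-/- and 195, 299 and 299 in RANK+/+ RNAs. The genotypes overlapped, and only pair 2 lay beyond the largest gap between technical arrays, 0.18. Without pair 2 the mean was -0.10.

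The 2 probes of Trp63, the gene of p63, gave opposite signs. The brighter (designed on NM_001127261) had ratios of 0.28, -0.02 and 0.17, a mean of 0.14 ± 0.15, and intensities of 4178, 4413 and 4012 in RANK-/- against 3452, 4462 and 3560 in RANK+/+ RNAs. The dimmer (designed on NM_011641) had ratios of -1.45, -1.07 and -0.50, a mean of -1.01 ± 0.48, and intensities of 594, 383 and 389 against 1627, 807 and 551. The dimmer probe was thus lower in every pair, at least 2-fold in pairs 1 and 2, while the brighter stayed within 0.3 of equality. Arrays A and B of a pair differed by at most 0.08 on either probe, so the probes lay further apart than the technical arrays did. The gene makes several transcripts from more than 1 start, but which of them each probe reads was not given in the sources used here, and the cause of the disagreement was not tested. Read from the dimmer probe, a choice made after its values were seen, all 4 identity genes were lower in every pair and the median of their means was -0.61 rather than -0.42.

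**Figure D3:**
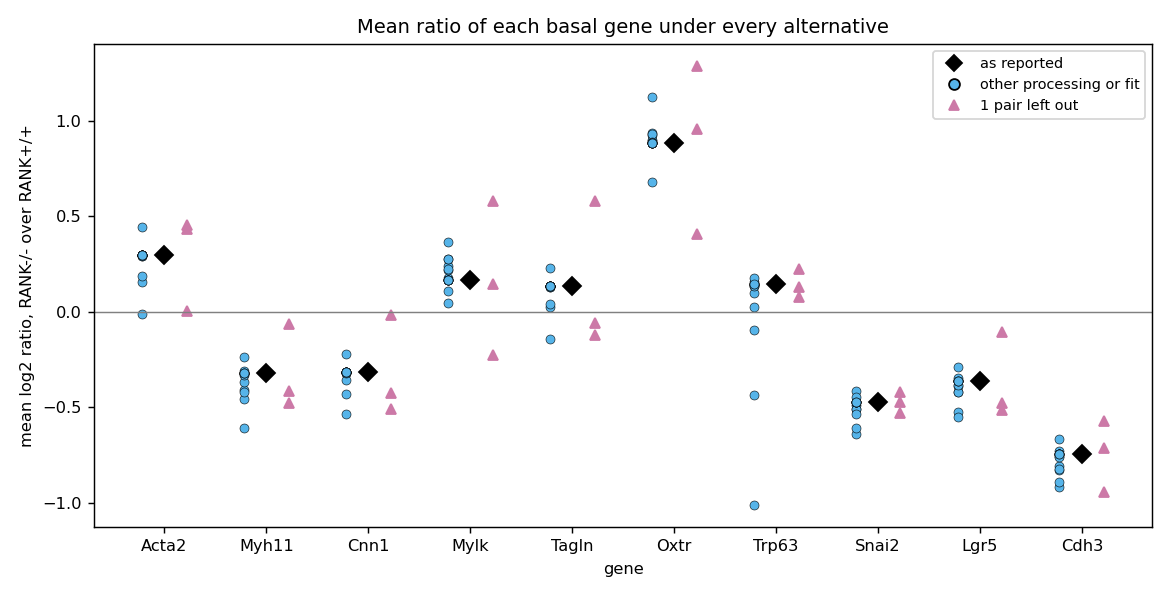
Mean log2 ratio (vertical axis) of the 10 genes as reported (black diamond), under other processing or fits (blue circles) and with 1 pair left out (pink triangles). Myh11, Cnn1, Snai2, Lgr5 and Cdh3 stay below 0 and Oxtr above 0 throughout, whereas Acta2, Mylk, Tagln and Trp63 have values on both sides of 0.

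The 10 genes were also set beside the other tested genes of their chromosomes. Myh11, Mylk, Trp63 and Snai2 are all on chromosome 16 per RefSeq. The 461 tested genes of that chromosome had median log2 ratios of 0.33, -0.08 and 0.07, and the first was the highest median of the 20 chromosomes in pair 1, ahead of 0.23. In pair 1 the brighter Trp63 probe (0.28) lay near that median, Mylk (0.95) above it, and Myh11 (0.00) and Snai2 (-0.36) below it. Acta2 is on chromosome 19, whose median was 0.22 in pair 3. The medians for the chromosomes of the other 5 genes lay between -0.04 and 0.05 in every pair. The part of the chromosome in these ratios was not tested.

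Other genes of the contractile apparatus, a list of 32 without the 10, had medians near 0. Of 29 tested, 2 were higher and 3 lower in every pair, 0 passed limma, and the medians were 0.04, -0.08 and 0.02. Among the higher ones was Myl9, the regulatory myosin light chain (1.13 ± 0.90). The lower ones were Pdlim3, an actinin-binding protein (-1.34 ± 0.97), Tpm2, a tropomyosin (-0.39 ± 0.31), and Synm, an intermediate filament protein (-0.18 ± 0.09). The dimmer probe of Tpm2 had a mean of -0.47, while that of Synm had a mean of 0.02 and did not keep 1 sign. Actg2, smooth muscle gamma-actin, named here after its values were seen, had ratios of 2.11, 2.89 and -1.79. It varied between pairs more than any of the 10 did. Myocd, the coactivator myocardin, was well above background in 1 channel of the 12 (1 RANK+/+ array) and was not tested, as were Lmod1 and Kcnmb1.

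Of 26 other genes of basal identity and adhesion, all tested, 2 were higher and 6 lower in every pair, 0 passed limma, and the medians were -0.76, -0.05 and -0.05. Those lower were Col17a1, the hemidesmosome collagen (-1.45 ± 1.07), the Notch ligands Jag1 (-0.91 ± 0.23) and Jag2 (-0.79 ± 0.63), the laminin chains Lamb3 (-0.90 ± 0.87) and Lama3 (-0.57 ± 0.49), and the factor Bcl11b (-0.38 ± 0.40). The dimmer probes of Bcl11b and Lama3 had means of -0.42 and -0.80, the second with 0.22 in pair 3. Those higher were the factor Sox10 (0.76 ± 0.46) and the receptor Procr (0.70 ± 0.47). The basal keratins, which define the layer, were well above background in all arrays. Krt5 had ratios of -1.41, -2.13 and 0.33 (-2.14, -1.22 and 0.31 on its dimmer probe), and Krt14 of -1.81, 0.12 and -0.44, so neither kept 1 sign.

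The contractile genes are shared with vessel walls, and the medians of 11 markers of pericytes and vascular smooth muscle followed the same order of pairs. So did the other contractile apparatus genes (0.04, -0.08 and 0.02) and all genes tested (0.02, -0.01 and 0.00). The 4 identity genes (-0.22, -0.41 and -0.36) had this order too, with every median below 0. Of the 11 markers, 10, 0 and 8 were above 0 in pairs 1, 2 and 3. Their medians were 0.78, -0.60 and 0.34, beside 0.70, -0.38 and 0.03 for the contractile genes. All 11 were well above background in every channel, among them Rgs5 (0.90, -0.72 and 0.82) and Pdgfrb (1.60, -1.03 and 0.76), which were given as the best known markers after their values were seen. Their summed intensity was 21834 to 35452 in RANK-/- and 17447 to 34027 in RANK+/+ RNAs. The summed intensity of the 6 contractile genes was 13263 to 24091 and 7813 to 22054. Acta2 and Tagln made up most of that sum in every RNA, and Myh11 and Mylk, at 98.5 to 207, added little. Mylk and Tagln had the signs of the marker median in every pair, and Acta2, Myh11, Cnn1 and Oxtr did not. The part of vessel cells in the contractile ratios was not tested.

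The other cell types followed other orders of pairs. The 12 fibroblast markers had medians of 0.11, 0.76 and 1.68, 6 of them higher and 0 lower in every pair, with a summed intensity of 153602 to 248794 in RANK-/- and 58930 to 157877 in RANK+/+ RNAs. The 6 were the matrix genes Col1a2 (1.28 ± 0.96), Dpt (1.02 ± 0.88), Col1a1 (0.97 ± 0.86), Mfap5 (0.51 ± 0.49) and Fbln1 (0.48 ± 0.22, and 0.32 on its dimmer probe), and the receptor Pdgfra (0.54 ± 0.62). The 12 luminal markers had medians of 0.37, -0.61 and 0.41, the sign order of Mylk and Tagln, with a summed intensity of 138379 to 453180 and 179110 to 284016. Among these, Epcam had ratios of 1.04, -0.67 and 0.52 and Krt8 of -0.41, -0.55 and 2.08, while the factor Foxa1 was lower (-1.24 ± 0.76) and the estrogen receptor Esr1 higher (0.34 ± 0.33, and 0.05 on its dimmer probe, without 1 sign) in every pair. The stratified and hair follicle markers, 10 of 12 tested, had medians of -1.25, -1.02 and -0.33, with 0 higher and 4 lower in every pair, and a summed intensity of 2695 to 4011 and 3937 to 17144. The 4 were Tchh (-2.99 ± 2.64), Krt27 (-1.73 ± 0.61), Krt16 (-1.71 ± 1.14) and Krt10 (-0.89 ± 0.57, and -0.60 on its dimmer probe), with Tchh and Krt27 well above background on 3 of 6 RANK-/- and 6 of 6 RANK+/+ arrays. Stratified epithelia also use Cdh3 and Trp63. The dimmer Trp63 probe was likewise lowest in pair 1, whereas the brighter was highest there (0.28) and Cdh3 was lowest in pair 3 (-1.09). Medians were 0.00, -0.10 and 0.55 for 9 of 10 endothelial markers, -0.26, 0.10 and 0.13 for 7 of 10 leukocyte markers, and 0.09, 0.19 and 0.01 for 4 of 9 skeletal muscle markers. Higher in every pair among these were Cldn5 (0.55 ± 0.36), Cd3e (0.08 ± 0.11), Tnnc2 (0.25 ± 0.19) and Pvalb (0.17 ± 0.12), and none was lower in every pair. Ptprc, which encodes CD45, was well above background on 5 of 6 RANK-/- and 4 of 6 RANK+/+ arrays, and the muscle genes Myh1, Myh4, Ckm and Actn3 on none. The part of these cell types in the ratios was not tested.

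**Figure D4:**
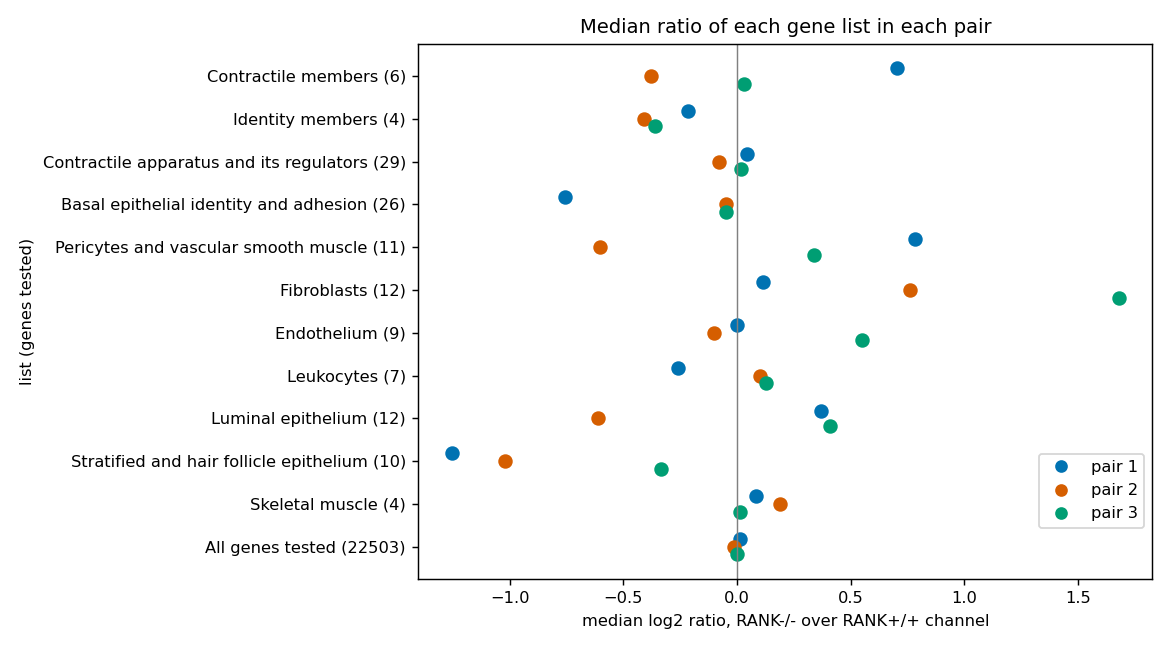
Median log2 ratio of the RANK-/- over the RANK+/+ channel (horizontal axis) of each gene list (vertical axis, number of genes tested in brackets) in pairs 1, 2 and 3 (colors). The contractile members, the identity members, the pericyte list, the contractile apparatus list and all genes tested share the order pair 1, pair 3, pair 2. The identity members lie between -0.41 and -0.22 in all pairs.

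The genes nearest in pattern were sought over the 3 pair ratios, by Euclidean distance on the log2 scale. Nearest to the mean of the 6 contractile genes (0.71, -0.26 and -0.02) were Spata1, Ap4b1, Igsf11, Crtc1 and 1700056E22Rik, at distances of 0.05 to 0.08. Nearest to the brighter Trp63 probe were Usp33, Gm10318, Gm5820, 2510039O18Rik and Rskr, at 0.03 to 0.05. None of the 10 named genes is on the basal or contractile lists, and the likeness rests on 3 values per gene.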

How the data were processed

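The 6 SurePrint G3 Mouse 2-color arrays were analysed as 3 pair ratios. Spots were extracted by the authors with Agilent Feature Extraction 10.7.3.1, per the submitters' processing notes. The deposited tables hold, unnormalized, a median intensity and a local background intensity per spot and channel. Per the file headers, Feature Extraction also computed a processed intensity per channel and, from these, the deposited log10 ratio of Cy5 over Cy3. The authors' series table holds normalized log2 ratios. Set against the scanner ratios, its unstated direction proved to be RANK-/- over RANK+/+, and column medians lay between -0.00763 and 0.00732. Both served only as alternatives.

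Median signals were corrected with normexp (offset 50) in limma 3.58.1 (R 4.3.3, data.table version 1.17.8). The offset was added to both channels and is part of the normalized intensities. Control spots and 212 to 260 outlier spots per array were left out (no spot was saturated), and ratios were normalized by intensity loess and Aquantile. Dyes were taken from the titles. The methods mention dye swaps, but the labels show none within a pair. Spots of a probe, then arrays A and B, were averaged. A probe was kept (30231 of 55681, 54.3%) when, in 1 genotype, at least 2 pairs had it well above background on each of their arrays. RefSeq symbols (GRCm38.p6) matched 28026 probes by accession. The brightest probe stood for a gene. Beyond that choice, levels of different probes were only summed over the genes of a list and were not compared with one another. Genes were tested with limma (intercept only, two-sided, Benjamini-Hochberg over 22503 genes, threshold 0.05). The fit was tested on simulated data.

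The 10 genes and the 9 background lists were chosen with earlier results of these data known, so no list was tested. Named were the 10 genes, Tnfrsf11a, Ptprc, Epcam, Krt8, Krt5 and Krt14, up to 6 genes per list with 1 sign in every pair (by absolute mean), and the 5 genes nearest to each of 2 patterns. One gene that this rule names is not reported here. Slide and scan time were shared by all 6 arrays and could not be tested as batches. The number of arrays limits the precision. Alternatives covered background correction, normalization, filter, probe choice, single arrays, pair as a random block, a dye term, unpaired channels, and each pair left out. Promoter motifs were counted in RefSeq windows.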

Additional observations from a re-analysis of the deposited data

How the results depend on the processing

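Of the 18 alternatives run for each gene, Myh11, Cnn1, Oxtr, Snai2, Lgr5 and Cdh3 kept their direction under all. Several of these could not change the mean of such a gene, which has 1 probe. They were the changed filters, the probe choices, pair as a random block and the unpaired channels. With median centring instead of loess the median of all genes was -0.14, and Acta2 was at -0.0086, Tagln at -0.14 and Trp63 at -0.10, so Acta2 and Trp63 lay above that median and Tagln just below it. Trp63 was -0.43 as the mean over its probes and -1.01 from its dimmer probe (an alternative added after the data were seen). With 1 pair left out, Mylk ranged from -0.23 (without replicate 1) to 0.58, and Tagln from -0.12 (without replicate 3; -0.06 without replicate 1) to 0.58. The cause was not tested. The contractile median, 0.15, was -0.08 with median centring and 0.30 with a dye term (Oxtr 1.12, Mylk 0.36, Tagln 0.23), and ranged from -0.14 to 0.51 with 1 pair left out. The identity median, -0.42, was -0.58 with median centring, -0.58 with Agilent processed signals and -0.61 with the dimmer Trp63 probe, and -0.52 to -0.29 with 1 pair left out. The 4 genes with 1 sign in every pair became 2 with median centring (Oxtr and Lgr5 lost) and 6 with Agilent processed signals (Myh11 and Cnn1 added, lower). They became 5 with the authors' series table, where Trp63 was added as higher. With the mean over probes or the dimmer Trp63 probe they were also 5, but Trp63 was added as lower. No background subtraction and array B alone each gave 5 (Myh11 added, lower). With 1 pair left out they were 5 to 7, where 2 signs have to agree rather than 3. limma called 0 genes except with the 6 arrays and pair as a random block (13 genes, none of the 10). The rank product called 9 (4 higher, 5 lower). limma called 0 genes with any 1 pair left out. The pair is the array, so pairing came from the design. With no replicate block, channels as 3 against 3 samples, limma called 0. The means, medians (0.15 and -0.42) and signs are the same by construction. All 10 genes kept their sign with normexp offset 16 and with no background subtraction, but sizes moved. With offset 16, Myh11 was at -0.41, Lgr5 at -0.42 and Mylk at 0.24, against -0.32, -0.36 and 0.17 as reported. With Agilent processed signals these 3 were at -0.61, -0.55 and 0.28.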
